A study of Mus musculus with 14 samples.

Results

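The m6A-RIP of Lin28a+ and control muscle stem cells (MuSCs) covered 4 of the 14 libraries of the study, 2 from each kind of cell. All 4 were chosen by their labels, and every row of the m6A-RIP table was kept. Per the labels, the cells were mouse skeletal muscle stem cells of the genotypes Control and Lin28a positive, grown on Matrigel in medium with serum, and the m6A libraries were made from polyA RNA. Lin28a+ MuSCs had been sorted by flow cytometry from muscle of Lin28a-CreERT2; LSL-tdTomato mice, in which a tamoxifen-dependent Cre recombinase driven from Lin28a turns on a red reporter. The reporter therefore marks cells by their Lin28a history. The age and sex of the animals, the number pooled per library and the sort gate of MuSCs-control are not given in the sources used here. Nothing in the labels says that the libraries of a group came from separate animals or cultures, so the p-values below measure only the spread between these libraries, which may be technical.

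N6-methyladenosine (m6A) is a methyl mark that a writer complex places on adenosines of RNA, mostly in long internal exons and near stop codons, and that reader proteins recognise. In m6A-RIP, also called MeRIP, mRNA is broken into short fragments and those carrying the mark are pulled down with an antibody and sequenced. The count of a row, which is a peak of 1 transcript, therefore rises both with the number of RNA molecules and with the share of them that is methylated. Lin28a is an RNA-binding protein of early development that blocks the maturation of let-7 microRNAs and also binds mRNAs directly, and Igf2bp3 is an RNA-binding protein described as an m6A reader.

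The table held 18881 rows of 13142 transcripts, annotated to 9416 genes. Library totals ranged from 21350962 to 31830638 counts, and the median gene had 685 to 1022 counts in a library, which leaves counting error small for most genes. Beyond counting error, libraries of a group varied by 5.74% per gene (edgeR's common biological coefficient of variation). The columns of both Lin28a+ libraries carry the same name in the table. Their counts differed by 7.83 in chi-square per degree of freedom (1 is sampling noise), against 7.25 between the control libraries, so they were counted as 2 libraries. Counts of Lin28a were not analysed here and could not serve as a check of the sort. Among the defining markers of the labelled cell type, 14 of 15 myogenic genes had rows. They included Myod1, the myogenic master regulator, at 1597 and 1609 CPM in MuSCs-control against 1745 and 1782 CPM in Lin28a+ MuSCs, and Pax7, the marker of satellite cells, at 29.2 and 24.8 and 29.9 and 36.5 CPM. Of the 14, 5 were called higher and 8 lower in Lin28a+ MuSCs (median log2 fold change -0.32), with Vcam1 (-1.95), Ncam1 (-1.18) and Myf5 (-1.06) among the lower, and in the input 3 were higher and 9 lower. CPM are counts divided by the library total and its TMM factor, which aligns the bulk of genes between libraries, times 1000000.

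The first question was which transcripts gave more or fewer m6A-RIP reads in Lin28a+ MuSCs, without correction for input. Per row, 61.8% of the 18881 rows passed an adjusted p under 0.05 in edgeR's quasi-likelihood test, with 5665 rows (30%) higher and 6005 (31.8%) lower in Lin28a+ MuSCs. After the rows of a gene had been summed, 66.3% of the 9416 genes passed, 3060 higher (32.5%) and 3179 lower (33.8%), around a median log2 fold change of 0.0070. The groups were near equal in number, but large falls outnumbered large rises. Among called genes, 336 rose and 755 fell by at least 1 on the log2 scale, and 64 rose and 163 fell by at least 2. Scaling by total counts alone shifted the median of all genes by -0.10, which gave 2395 higher and 3766 lower genes, and the changes below are relative to the TMM-scaled median. In bulk RNA, fewer cells that carry a transcript and fewer molecules per cell cannot be told apart.

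**Figure D1:**
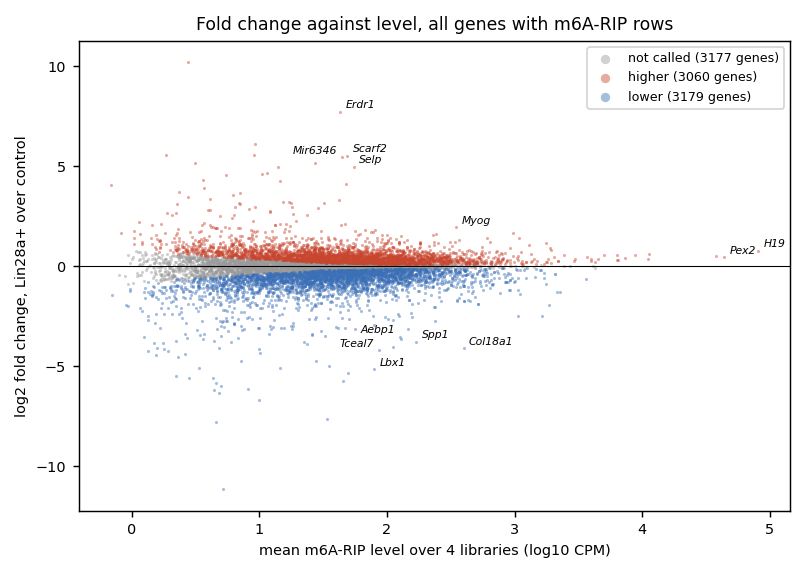
Each point is a gene, with its mean m6A-RIP level over the 4 libraries on the x axis (log10 CPM) and its log2 fold change, Lin28a+ over control, on the y axis. Red and blue mark genes called higher (3060) and lower (3179), grey those not called (3177), and called genes lie at every level from a few CPM to H19 at the right. The 5 higher and 5 lower genes with the smallest p are labelled, with H19 and Pex2, and the points farthest from 0, Gm26760 and Gm10451, had no counts in either library of a group, so their fold change has no size.

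The 10 higher genes with the smallest p covered adhesion, signalling and muscle genes. Selp, which encodes P-selectin, an adhesion receptor for leukocytes on endothelium and platelets, stood at 3.46 and 3.35 CPM in MuSCs-control against 106 and 107 CPM in Lin28a+ MuSCs, a log2 fold change of 4.97 (standard error 0.083, adjusted p 3.93e-13). The scavenger receptor family gene Scarf2 had 2.09 and 2.08 against 91.0 and 100.4 CPM, and Bdkrb1, the bradykinin B1 receptor, had 1.43 and 1.54 against 52.7 and 53.7 CPM. All 3 stood below 5 CPM in both control libraries and above 50 CPM in both Lin28a+ libraries. Heyl, a transcription factor induced by Notch signalling, had 5.73 and 4.30 CPM in MuSCs-control against 90.3 and 90.4 CPM in Lin28a+ MuSCs (log2 fold change 4.14, standard error 0.10). Myog, which encodes myogenin and drives muscle differentiation, rose from 144 and 141 to 549 and 561 CPM, a log2 fold change of 1.96 (standard error 0.041, adjusted p 1.86e-12). Gas1, a membrane protein linked to growth arrest, had log2 fold change 1.69, slow skeletal troponin T (Tnnt1) 1.44 and the olfactomedin-like matrix gene Olfml2b 1.60. The greatest of the 10 was Erdr1, at 0.455 and 0.316 CPM against 78.8 and 91.2 CPM (log2 fold change 7.72). Erdr1 lies in the pseudoautosomal region of the sex chromosomes, whose sequences are repetitive, so how its reads were assigned is uncertain. Mir6346, a microRNA gene, completed the set with log2 fold change 5.46. The rule that chose these genes required that the groups not overlap, as they did not in 82.6% of all genes, so their separation is a description.

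Among the 10 lower genes with the smallest p, several encode secreted or matrix proteins. Col18a1, the basement membrane collagen that yields endostatin, fell from 739 and 762 CPM to 43.7 and 43.6 CPM, a log2 fold change of -4.10 (standard error 0.045, adjusted p 2.43e-14). Osteopontin (Spp1), a secreted phosphoprotein, went from 314 and 315 to 23.2 and 23.1 CPM, and Aebp1, a collagen-binding protein, from 238 and 230.4 to 20.5 and 20.2 CPM. The serine protease gene Prss23 had 263 and 258 against 29.4 and 30.8 CPM. Lbx1, a homeobox gene of migrating limb muscle precursors, stood at 154 and 154 CPM in MuSCs-control against 4.65 and 4.10 CPM in Lin28a+ MuSCs (log2 fold change -5.14, standard error 0.073). Cardiac troponin T (Tnnt2), which developing muscle also expresses, fell from 1815 and 1807 to 323 and 332 CPM, whereas slow troponin T rose. Ccnd1, which encodes cyclin D1 and drives entry into S phase, fell from 418 and 407 to 64.7 and 60.5 CPM (log2 fold change -2.72, standard error 0.048). The remaining 3 were Tceal7 (-4.19), the protocadherin Pcdh1 (-4.03) and the adhesion receptor Adgrf4 (-5.35), all as log2 fold changes.

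**Figure D2:**
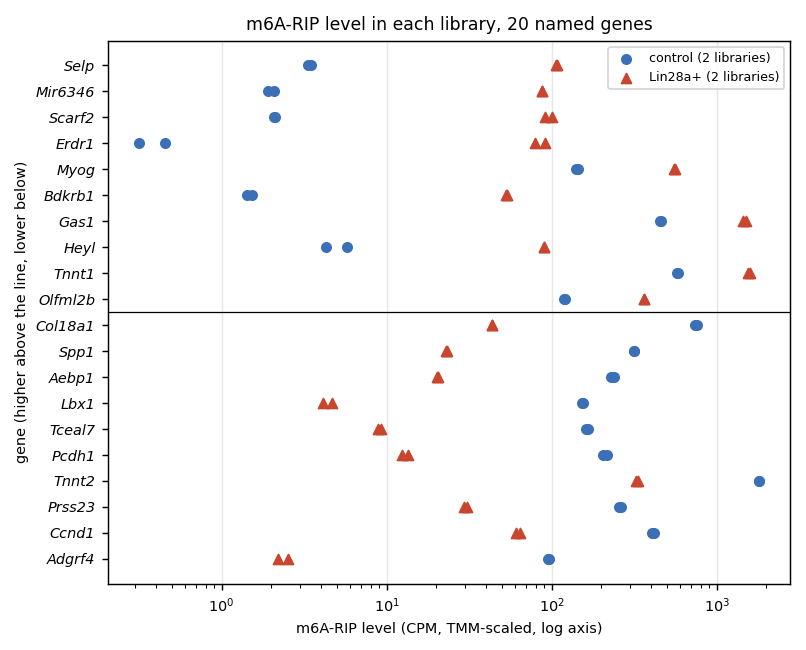
The m6A-RIP level of the 10 higher and 10 lower genes with the smallest p in each library, in CPM on a log axis, with control libraries as circles and Lin28a+ libraries as triangles. The genes were chosen by p and for groups that do not overlap, and the plot shows their levels, from below 1 CPM for Erdr1 in control libraries to 1815 CPM for Tnnt2.

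A few genes took a large part of the reads. H19, an imprinted long non-coding RNA that is abundant in developing muscle, held 6.24% and 6.12% of the counts in control libraries and 9.98% and 9.66% in Lin28a+ libraries (log2 fold change 0.77, standard error 0.022, adjusted p 2.72e-11). The next 4 were Pex2, a peroxisome assembly gene, at 36580.1 and 37294 CPM against 48370.2 and 53020.5 CPM, Filip1l, Gphn and the gene model Gm8579. All 5 rose, with log2 fold changes of 0.77 to 0.38, and together they held 15.1% to 21.7% of a library. In the input, the RNA-seq that accompanies the pulldown, Pex2 had only 17.0 and 17.2 CPM in MuSCs-control against 19.03 and 18.4 CPM in Lin28a+ MuSCs, and Gphn 14.02 and 15.7 and 15.7 and 16.3 CPM. For Filip1l the assays went in opposite directions, with an input log2 fold change of -0.94 (standard error 0.047). Filip1l lies within Cmss1 in RefSeq's GRCm38.p6 annotation, and Cmss1 had a log2 fold change of -1.13 in the m6A-RIP and 0.50 in the input. The counting is not stated to use strand, so how reads were assigned between these genes is uncertain. Computing the scaling without H19 changed no call among the genes taken by the rule and named here.

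Gene lists are described from here on, and the shares over all genes to set beside each are 32.5% higher and 33.8% lower. The proteins that write, erase and read m6A come first. Of the 12 writer and eraser genes with rows, 2 were called higher and 3 lower, fewer than over all genes, and the median log2 fold change of -0.012 turned positive without either control library. The catalytic subunit gene Mettl3 had 45.4 and 50.5 CPM in MuSCs-control against 51.4 and 50.3 CPM in Lin28a+ MuSCs (adjusted p 0.29), and the demethylases Fto and Alkbh5 had log2 fold changes of -0.013 and -0.04 that did not pass the test. Pcif1, which methylates the cap-adjacent adenosine, rose (0.61), as did Rbm15b (0.28), a paralogue of Rbm15. Zc3h13 (-0.84), Rbm15 (-0.53) and Virma (-0.44), subunits of the writer complex, fell. Of 16 reader genes, 5 were higher (31.2%) and 7 lower (43.8%), near the 32.5% and 33.8% over all genes. Fxr2 (0.54), Elavl1 (0.36), Prrc2a (0.18) and Ythdf1 (0.14) rose. Ythdf3, a cytoplasmic reader, fell from 182 and 190.4 to 115 and 104 CPM, and Prrc2c and Eif3a fell by 1.21 and 1.07 on the log2 scale. Fmr1 (-0.67), Ythdc1 (-0.59) and Prrc2b (-0.13) were lower too.

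The Igf2bp readers differed from each other. Igf2bp3 had 1 row, with 5366 and 5754 CPM in MuSCs-control against 6754 and 7280.3 CPM in Lin28a+ MuSCs, a log2 fold change of 0.34 (standard error 0.041, adjusted p 1.33e-05). Both Lin28a+ libraries were above both control libraries. In the input, Igf2bp3 had 11.6 and 10.6 CPM against 35.5 and 33.8 CPM, a log2 fold change of 1.65. Igf2bp2 fell over 3 rows, from 87.2 and 84.7 to 67.8 and 65.2 CPM (-0.37). Stress granule components, the proteins and translation factors that gather with stalled mRNAs, were more often lower than higher. Of 35 with rows, 19 (54.3%) were lower and 8 (22.9%) higher, against 33.8% and 32.5% over all genes, with a median log2 fold change of -0.19, examples being Nufip2 (-0.81), Ddx6 (-0.67) and Usp10 (0.35).

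Because Lin28a acts on let-7, rows annotated to let-7 genes were examined, a choice made after their values had been seen. Only 2 of the 209 microRNA genes with rows encode a let-7 family 5p strand, Mirlet7i on chromosome 10 and Mir98 on chromosome X. Their mature sequences from RefSeq (GRCm38.p6) are shown because they share the seed (bases 2 to 8, in capitals) that pairs with targets, while the bases after it differ. They lie at chr10:122985698-122985719 on the minus strand and chrX:151913229-151913250 on the plus strand.
mmu-let-7i-5p: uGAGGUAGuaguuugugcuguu
mmu-miR-98-5p: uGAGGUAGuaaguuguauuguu
The row of Mirlet7i had 3.10 and 2.30 CPM in MuSCs-control against 4.97 and 4.57 CPM in Lin28a+ MuSCs, a log2 fold change of 0.80 (standard error 0.24, adjusted p 0.00984 in edgeR's test over all rows). The row of Mir98 had 15.7 and 23.2 CPM against 10.5 and 12.0 CPM, a log2 fold change of -0.77 (standard error 0.17, adjusted p 0.00104). The groups overlapped in neither row, as in 80.6% of all rows, and the rows moved in opposite directions. A row counts RNA fragments assigned to the gene and does not measure the mature microRNA. Of the 326 rows annotated to microRNA genes, 29.1% were higher and 35.9% lower, near the shares over all rows.

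Genes of the let-7 pathway and its known targets were more often lower than higher. Of 31 with rows, 15 were lower (48.4%) and 6 higher (19.4%), against 33.8% and 32.5% over all genes, with a median log2 fold change of -0.17. The list holds Imp3, a gene of ribosomal RNA processing whose symbol is also an older name of Igf2bp3, and without it 15 of 30 were lower and 5 higher (median -0.26). Cyclin D2 (Ccnd2) fell from 363 and 379 to 96.0 and 87.5 CPM, and Tut7, which encodes a uridylyltransferase that tails let-7 precursors, fell from 74.1 and 76.5 to 34.7 and 35.7 CPM. Trim71 (also called Lin41), a target known from early development, rose from 4.85 and 4.43 to 11.1 and 13.9 CPM, and Irs2, an adaptor of the insulin receptor, from 10.9 and 10.9 to 23.9 and 23.9 CPM. Members of the list thus moved in both directions.

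Myogenic transcription factors changed in both directions, and nearly every one with rows was called. Of 30, 13 were higher (43.3%) and 16 lower (53.3%), against 32.5% and 33.8% over all genes. Beside Myog and Heyl, Hey1, another Notch-induced factor, rose from 57.6 and 56.5 to 148 and 162 CPM and Snai1, a zinc finger repressor, from 34.0 and 35.1 to 114 and 114 CPM. Its relative Snai2 went the other way, from 69.9 and 70.8 to 24.0 and 22.5 CPM. Myf5, an early determination factor, fell from 95.1 and 96.5 to 46.1 and 46.0 CPM, a log2 fold change of -1.06 (standard error 0.053), and Hes6 fell from 2291 and 2278 to 1259 and 1256 CPM. Myod1 rose by only 0.14 on the log2 scale (adjusted p 0.00296), and Pax7 by 0.30 (standard error 0.11, adjusted p 0.0263). For Pax7, the higher control library nearly reached the lower Lin28a+ library.

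Contractile and cytoskeletal genes were largely lower. Among 53 sarcomere and contraction genes, 33 were lower (62.3%) and 11 higher, with a median log2 fold change of -0.38. Slow and cardiac troponin C (Tnnc1) fell from 219.6 and 234 to 73.1 and 68.2 CPM and Xirp2, an actin-binding protein of striated muscle, from 58.7 and 60.4 to 4.61 and 6.07 CPM. The calcium pump Atp2a1 was among those that rose, from 26.3 and 23.5 to 55.6 and 53.3 CPM. Of 12 genes of the acetylcholine receptor and neuromuscular junction, 7 were lower, among them the receptor subunit Chrna1 (845 and 881 against 439.8 and 471 CPM), and 2 were higher. The giant cytoskeletal and scaffold genes had the greatest share of lower members of any list with at least 10 genes, 24 of 30 (80%), with a median of -0.56. Ahnak, a giant scaffold of the membrane skeleton, fell from 3233 and 3205 to 1312 and 1306 CPM, and the linker Macf1 from 543 and 554 to 186 and 181 CPM. Akap12, an anchor for kinase A, fell by 2.63 on the log2 scale, while filamin C (Flnc) rose (0.35).

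Of 27 genes in the list of satellite cell surface and fusion, 6 were higher (22.2%, the transcription factor gene Heyl among them) and 13 lower (48.1%), against 32.5% and 33.8% over all genes. M-cadherin (Cdh15) rose from 315 and 312 to 557 and 557 CPM and Mymx, a micropeptide needed for myoblast fusion, from 31.5 and 27.4 to 107 and 100.6 CPM. Syndecan 3 (Sdc3) fell from 802 and 829 to 221 and 227 CPM, and the fibroblast growth factor receptor Fgfr1 from 355 and 365 to 200.5 and 206 CPM. Cadherin 11 (Cdh11) fell from 184 and 189 to 104 and 91.8 CPM, a log2 fold change of -0.93 against -4.54 in the input, and its highest row alone rose by 0.28 (adjusted p 0.0055).

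Cell cycle genes went partly in opposite directions. Of 27 G1 cyclins, inhibitors and E2F factors, 14 were higher and 11 lower. The D cyclins fell (Ccnd1 and Ccnd2, above), and so did the inhibitor locus Cdkn2a, from 263 and 251 to 51.3 and 49.5 CPM. The inhibitors Cdkn1c (1.12 and 0.543 against 28.1 and 26.6 CPM) and Cdkn2c (37.9 and 36.6 against 99.3 and 103 CPM) rose, as did the S phase factors E2f2 (3.28 and 3.26 against 29.8 and 31.5 CPM) and E2f8. Genes of mitosis were higher more often than all genes, 23 of 39 (59%) against 32.5%, with a median log2 fold change of 0.36. The mitotic kinases Plk1 (58.9 and 58.7 to 142 and 146 CPM), Aurka (1.21) and Cdk1 (0.93) rose. Ckap5, a microtubule polymerase, fell by 1.06 and Aspm, a spindle pole gene, by 0.72 on the log2 scale. The cohesin genes, which hold sister chromatids together, went the other way, with 5 of 10 lower and 1 higher (median -0.50), and the loader Nipbl fell from 58.0 and 61.8 to 28.1 and 26.4 CPM.

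DNA replication genes were mostly higher as well. Of 37, 24 were higher (64.9%) and 5 lower (13.5%), with a median of 0.34. Chaf1b, a histone chaperone subunit, rose from 50.3 and 51.5 to 129 and 138 CPM, thymidine kinase (Tk1) from 61.9 and 61.7 to 137 and 139 CPM and the flap nuclease Fen1 from 109.6 and 113 to 192 and 189.9 CPM. The exceptions included Top1 (-0.91) and Rfc4, a clamp loader subunit, which fell from 51.9 and 52.9 to 28.3 and 27.6 CPM. Pold2, a DNA polymerase delta subunit, fell from 245 and 234 to 21.4 and 17.9 CPM (log2 fold change -3.62, standard error 0.068), while its input rose from 34.8 and 32.3 to 84.1 and 78.9 CPM. Pold2 overlaps Aebp1 in RefSeq's GRCm38.p6 annotation, and Aebp1 fell in the m6A-RIP (-3.53) and in the input (-3.54). The counting is not stated to use strand, so reads of these neighbours cannot be told apart.

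DNA repair was the theme of the study, and its lists gave different pictures. Fanconi anaemia and homologous recombination genes had 19 of 43 higher and 9 lower (median 0.12). Faap20, of the Fanconi pathway, rose from 41.1 and 38.8 to 64.5 and 67.1 CPM. Ube2t, the ubiquitin-conjugating enzyme of that pathway, fell from 19.3 and 18.9 to 1.04 and 0.866 CPM, whereas its input rose (0.66). The crosslink nuclease Fan1 fell by 1.03 on the log2 scale. For damage signalling and end joining, 7 of 29 were higher and 8 lower, and the median of 0.010 turned negative under total-count scaling and without any 1 library. Of 26 excision and mismatch repair genes, 11 were higher and 5 lower, and their median of 0.075 became -0.026 under total-count scaling. H2ax, the histone variant phosphorylated at breaks, rose from 209 and 212 to 519 and 535 CPM.

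The study's RT-qPCR list of 22 genes is treated here as repair genes, though it includes Tut7, the uridylyltransferase gene described above. The paper focused on repair targets because they were enriched among transcripts bound by Lin28a and Igf2bp3. Those libraries belong to the same study, so the direction of these genes is not independent evidence. All 22 had rows, with 4 higher, 11 lower and 7 not called, and a median log2 fold change of -0.30. Usp1, the deubiquitinase that acts on the Fanconi complex, had 103 and 94.7 CPM in MuSCs-control against 131 and 127 CPM in Lin28a+ MuSCs, a log2 fold change of 0.38 (standard error 0.049, adjusted p 2.22e-05). Fancm, a translocase of the same pathway, had 10.1 and 9.81 against 6.44 and 6.73 CPM (-0.59, standard error 0.16, adjusted p 0.00482). The groups overlapped in neither gene, as in 82.6% of all genes. Bard1, the partner of Brca1, rose from 11.6 and 10.5 to 20.8 and 18.9 CPM, and Upf1 (0.28) and Ttf2 (0.27, adjusted p 0.0329) also rose. Trip12 fell from 257 and 251 to 142 and 149 CPM and Vcpip1 from 6.19 and 7.32 to 3.70 and 2.999 CPM. Tut7, Ino80d (-0.86), Fbxw7 (-0.68), Slf2 (-0.63), Pds5a (-0.61), Wrn (-0.54) and Supt16 (-0.32) fell too. Of the 7 not called, Smchd1 had the greatest difference, 3.19 and 1.18 CPM against 4.31 and 3.70 CPM (adjusted p 0.0562), and the others were Smarcad1 (-0.29), Dcp2 (-0.15), Ercc3 (-0.15), Usp7 (-0.14), Palb2 (-0.062) and Msh3 (0.085).

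Targets of p53 were more often lower, with 13 of 26 (50%) lower and 4 higher. Gadd45a, a growth arrest gene, fell from 119 and 119.9 to 46.1 and 45.5 CPM and Mdm2, the ubiquitin ligase of p53, from 196 and 191 to 91.4 and 89.5 CPM. The inhibitor p21 (Cdkn1a) fell by 0.57 on the log2 scale, while Bax, a promoter of apoptosis, rose (0.35).

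Imprinted growth genes fell more often than they rose, 10 against 4 of 18. The growth factor Igf2, neighbour of H19, fell from 2815 and 2699 to 399.8 and 584 CPM, a log2 fold change of -2.49 (standard error 0.12, adjusted p 3.53e-09), so that the pair moved in opposite directions. Both Lin28a+ libraries lay far below the control libraries, and they also differed from each other. The retrotransposon-derived Peg10 fell from 1449.9 and 1496 to 662 and 654 CPM, and the zinc finger genes Peg3 and Zim1 fell by 1.15 and 1.19 on the log2 scale. Nnat, a membrane proteolipid, rose from 6.73 and 8.68 to 77.7 and 75.1 CPM. In the IGF and insulin pathway, 9 of 31 were higher and 16 lower. The binding proteins Igfbp2 (1092 and 1086 to 2443 and 2399 CPM) and Igfbp5 (196 and 209 to 475 and 472 CPM) rose, and Pik3r1, the regulatory subunit of PI3 kinase, fell from 56.5 and 55.7 to 17.0 and 16.8 CPM.

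Signalling pathways held members that moved in both directions. In the Notch pathway, 9 of 24 were higher (37.5%) and 10 lower (41.7%), near the 32.5% and 33.8% over all genes, and Dtx4, a ubiquitin ligase, rose from 16.7 and 18.4 to 74.7 and 78.5 CPM while the coactivator Maml3 fell (-0.82). Wnt genes had 10 higher and 19 lower of 37, with the receptor Fzd4 up from 9.86 and 9.49 to 28.0 and 28.3 CPM and Apc, of the destruction complex, down from 80.9 and 85.3 to 33.7 and 37.3 CPM. Of 40 TGF-beta and BMP genes, 10 were higher and 22 lower. The BMP antagonist noggin (Nog) rose from 30.6 and 29.6 to 91.0 and 87.7 CPM. Growth factor and cytokine receptors had 7 of 26 higher and 12 lower, the lysophosphatidic acid receptor Lpar1 falling from 81.8 and 81.2 to 16.7 and 19.3 CPM. Of 15 chemokines and cytokines, 4 were higher and 7 lower, and Csf1, the macrophage growth factor, fell from 668 and 652 to 207 and 210.4 CPM. Interferon-stimulated genes had 5 higher and 7 lower of 16.

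Immediate early and Klf factors, which cells switch on within minutes of stimulation, were largely lower. Of 35, 19 were lower (54.3%) and 5 higher (14.3%), with a median log2 fold change of -0.30. Egr1 fell from 74.0 and 74.2 to 8.22 and 9.06 CPM, Errfi1, a feedback inhibitor of EGF receptor signalling, from 679.6 and 701 to 207 and 214 CPM and the RNA-binding Zfp36l2 from 659 and 659 to 258 and 269 CPM. Ier5 rose from 152 and 156 to 348 and 353 CPM.

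Matrix genes were lower more often than higher. Among 31 matricellular and remodelling genes, 18 were lower (58.1%) and 7 higher, with a median of -0.38. The proteoglycan Vcan fell from 721 and 741 to 253 and 256 CPM. Of 17 collagens, 8 were lower, Col1a2 going from 66.0 and 68.9 to 2.57 and 1.83 CPM and Col5a2 from 223 and 227 to 72.9 and 68.3 CPM. Both chains of the common basement membrane collagen rose, Col4a1 from 144 and 140.5 to 236 and 239.9 CPM and Col4a2 by 0.57 on the log2 scale. Integrins and laminins had 5 higher and 9 lower of 18, with Itgb1 down from 575 and 579 to 286 and 285 CPM and Itga6 from 108 and 110.0 to 33.1 and 32.8 CPM. S100 proteins and annexins had 3 higher and 5 lower of 13, and S100a4 fell from 133 and 129.7 to 23.6 and 24.1 CPM.

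Smaller families and nuclear regulators were described in the same way. Of 9 Tceal and Bex genes, which encode small elongation-factor-like proteins clustered on the X chromosome, 6 were lower, among them Tceal7 at 162 and 166 against 9.22 and 8.83 CPM, and Bex3 rose from 216 and 217 to 395 and 391 CPM. Hox genes had 3 higher and 4 lower of 14, and Hoxc13 fell from 44.0 and 41.9 to 11.5 and 10.9 CPM. Of 84 chromatin modifiers, 38 were lower (45.2%) and 23 higher (27.4%). The histone methyltransferase Setd2 fell from 121 and 127 to 62.4 and 62.5 CPM and the remodeller Atrx from 75.8 and 79.0 to 34.4 and 35.4 CPM. The Polycomb subunit Cbx2 and the deacetylase Hdac1 rose (1.02 and 0.68).

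Respiratory chain and one-carbon genes had the greatest shares of higher members among the gene lists, and other metabolic lists were mixed. Of 55 nuclear-encoded respiratory chain subunits, 42 were higher (76.4%) and 7 lower (12.7%), with a median log2 fold change of 0.33, and none changed by as much as 1. Ndufb8, of complex I, rose by 0.65, Uqcr11 by 0.62 and Uqcrfs1, of complex III, by 0.48. Cox7a2 and Cox6c, of complex IV, fell (-0.84 and -0.93) while their input rose (0.50 and 0.30). Cox7a2 overlaps Tmem30a in RefSeq's GRCm38.p6 annotation, which fell in both assays (-0.44 and -0.87). Of 24 serine and one-carbon genes, 17 were higher (70.8%) and 3 lower, with a median of 0.45. Shmt2, the mitochondrial serine hydroxymethyltransferase, rose from 114 and 114 to 251 and 252 CPM, Psat1, of serine synthesis, from 144 and 161 to 311 and 321 CPM and the glutamine transporter Slc1a5 from 52.8 and 54.2 to 131 and 121 CPM.

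Cytosolic ribosomal protein genes had 23 of 39 higher (59%) and 5 lower (12.8%), with a median of 0.17. Rps2 rose by 0.67 on the log2 scale. The 5 lower ones included Rps6, Rps13 and Rpl39, which stood below 10 CPM in every m6A-RIP library and were called higher in the input (log2 fold changes of 0.28, 0.26 and 0.25). Of 24 TCA cycle and pyruvate genes, 9 were higher and 6 lower, with Pck2, the mitochondrial PEP carboxykinase, up from 107 and 108 to 251 and 254 CPM. Pdk2, a pyruvate dehydrogenase kinase, rose (1.14) and its relative Pdk4 fell (-1.12). Glycolysis had 9 higher and 5 lower of 19, with a median of 0.058 that became -0.043 under total-count scaling. The hypoxia response had 5 higher and 6 lower of 16, and Egln3, an oxygen-sensing hydroxylase, fell from 39.4 and 44.2 to 10.2 and 9.36 CPM. Oxidative stress genes were more often lower, 17 of 31 (54.8%) against 7 higher. Haem oxygenase (Hmox1) fell from 266 and 270.5 to 128 and 129 CPM and thioredoxin reductase (Txnrd1) from 381 and 379 to 224 and 229.7 CPM, while Selenow and Park7 rose (0.67 and 0.52).

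**Figure D3:**
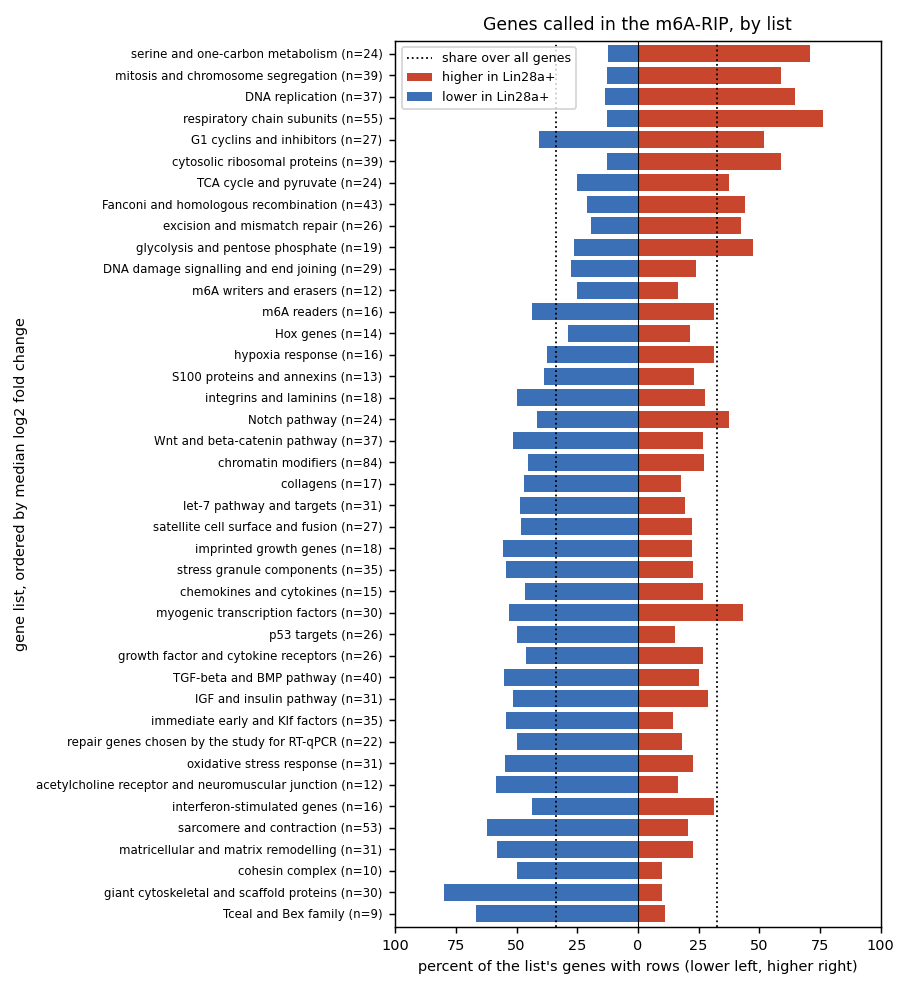
For each of the 41 gene lists, the percent of its genes with m6A-RIP rows that were called higher (red, right) or lower (blue, left) in Lin28a+ MuSCs, with dotted lines at the shares over all genes, 32.5% and 33.8%. Lists are ordered by median log2 fold change, with 11 medians above 0 and 30 below.

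Markers of other cells were examined, since a sort can carry them. Of 18 leukocyte and 9 adipocyte markers none had an m6A-RIP row, and of 16 markers of fibro-adipogenic progenitors 2 had, both lower, with a summed level of 16.7 and 15.9 against 7.35 and 6.93 CPM. In the input, the list summed to 191 and 201 against 167 and 156 CPM. Its members Gsn (-1.21), Smoc2 (-1.33) and Thy1 (-1.49) were lower there, Fbln1 (1.15) and Ly6a (1.61) were higher, and Pdgfra, which defines these cells, was below 1 CPM in every library. Of 13 Schwann and neural markers 4 had rows and 2 were higher, with a summed level of 62.3 and 62.0 against 77.4 and 80.2 CPM. Of 17 endothelial markers 6 had rows and 4 were higher, with a summed level of 76.1 and 79.9 CPM in MuSCs-control against 198 and 207 CPM in Lin28a+ MuSCs. Selp alone held 106 and 107 CPM of that sum in Lin28a+ MuSCs, Cldn5 rose from 6.73 and 6.60 to 13.8 and 13.3 CPM, and the defining markers Pecam1, Kdr and Tek had no row. Selp also rose in the input, from 1.68 and 1.45 to 53.2 and 51.2 CPM. Pecam1, Tie1, Flt1, Vwf and Erg were each below 1 CPM in every input library. Egfl7 had 0.561 and 0.482 against 0.981 and 1.02 CPM there. For pericytes and smooth muscle, 6 of 16 had rows, with summed levels of 1122 and 1123 CPM against 1398 and 1395 CPM, where Tagln fell (-1.75) and Acta2 rose (0.65). Acta2 alone held 599 and 606 against 963 and 931 CPM of these sums. In the input, the list summed to 7589 and 7605 against 8983 and 8957 CPM. Mcam (3.17) and Pdgfrb (1.27) were higher there, and Rgs5 (-3.35) and Lmod1 (-0.51) were lower. The part of such cells in the results was not tested.

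Rows of the same gene were compared to see whether a gene moved as a whole. Of 4901 genes with 2 or more rows, 905 had every row higher and 908 every row lower. Rows were called in both directions in 293 (5.98%), and the median range of log2 fold changes within a gene was 0.27. Tnnt1 had all 9 rows higher, between 1.399 and 1.71 on the log2 scale, and Chd3, a chromatin remodeller, and Col4a1 had all 8. Ahnak had all 17 rows lower, between -1.40 and -1.13, as had Macf1 (17 rows) and the myosin heavy chain Myh9 (15 rows). Tnrc18, with 18 rows, ranged from -0.40 to 3.38, with 2 rows higher and 5 lower. Myo18a had 2 of 12 rows higher and 8 lower, and Hypk 3 higher and 3 lower of 8. Rows of a gene share its RNA and are not replicates of each other.

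The same genes were then looked up in the peak tables of the bound proteins. Of genes lower in the m6A-RIP, 44.9% had a Lin28a-RIP peak (Wilson 95% interval 43.2 to 46.6), against 18.2% (16.8 to 19.6) of genes higher and 24.7% (23.2 to 26.2) of genes not called. With Igf2bp3-RIP the shares were 62.5% (60.8 to 64.2), 21.2% (19.8 to 22.7) and 32.4% (30.8 to 34.0). The intervals of lower and higher genes did not overlap for either protein. The median m6A-RIP level was 37.2 CPM for lower, 44.2 CPM for higher and 16.4 CPM for genes not called, and the median input was 22.6, 25.9 and 17.0 CPM. Both called classes had a median of 2 rows per gene. The part of level, row number and transcript length in these shares was not tested, and the intervals cover counting error only. Genes are not independent replicates.

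**Figure D4:**
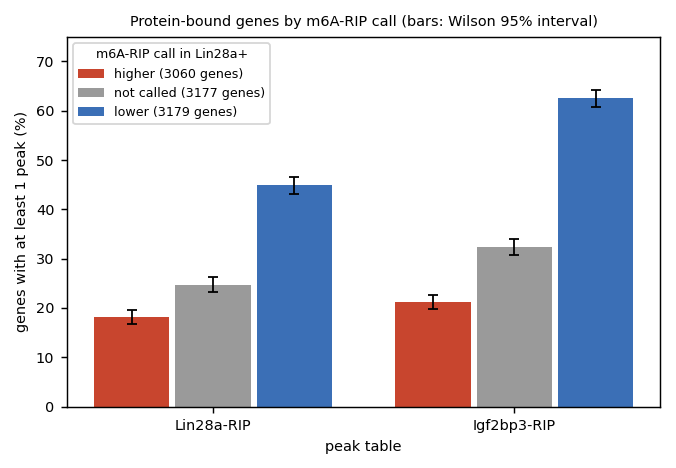
The percent of genes with at least 1 peak in the Lin28a-RIP or the Igf2bp3-RIP table (y axis), for genes higher, not called or lower in the m6A-RIP (red, grey, blue), with Wilson 95% intervals. Genes lower in Lin28a+ MuSCs have a peak most often in both tables, 44.9% and 62.5%.

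Values of the input were set beside the m6A-RIP without a test of their ratio. The input columns of Lin28a+ MuSCs are headed with m6A library names and were assigned to the group through the sample labels. These labels give total RNA for the input, whereas the methods take it from the purified mRNA. Of the 11317 input genes tested, 28.1% were higher and 28.7% lower in Lin28a+ MuSCs by edgeR's quasi-likelihood test (3181 and 3253 genes), whereas DESeq2 called 1479 and 1560. Among the 2432 genes higher in the m6A-RIP and tested in the input, 1733 (71.3%) were also higher in the input, 61 lower and 638 not called, by edgeR's calls. By DESeq2's input calls 879 (36.1%) were higher and 25 lower, and of the genes lower in the m6A-RIP 1044 (39.7%) were lower and 31 higher. These 1733 were 80.4% of the genes higher in the input that had m6A-RIP rows. Of the 2628 genes lower in the m6A-RIP, 1911 (72.7%) were lower, 83 higher and 634 not called in the input, and the 1911 were 83% of the genes lower in the input with rows. Of 168 genes taken by the rule and named, with both values, 141 had log2 fold changes within 0.5 of each other, a tolerance chosen after the values were seen, such as 4.97 and 5.05 for Selp, -4.10 and -3.89 for Col18a1 and 1.96 and 1.86 for Myog, in the m6A-RIP and the input respectively. The other 27 differed by more, among them Cdh11 (-0.93 against -4.54), Igf2bp3 (0.34 against 1.65), Pdk2 (1.14 against -0.059, not called in the input), Tceal7 (-4.19 against -1.72), Igf2 (-2.49 against -3.37) and Zim1 (-1.19 against -0.58). Of the genes taken by the rule, 13 were called in opposite directions. Besides Pold2, Ube2t, Filip1l, Cox7a2, Cox6c, Rps6, Rps13 and Rpl39, these were Rfc4 (-0.90 in the m6A-RIP and 1.57 in the input), Gtf2h4 (-0.39 and 0.78), Mtr (-0.79 and 0.22), Bbc3 (0.34 and -0.64) and Tapbp (0.36 and -0.82). Pold2, Filip1l, Cox7a2 and Rpl39 overlap a neighbouring gene, so how their reads were assigned is uncertain. The input calls of Ube2t, Gtf2h4, Mtr, Bbc3 and Tapbp did not pass under DESeq2, nor did the m6A-RIP call of Mtr, and those of Ube2t, Mtr and Bbc3 were also lost in the input when single libraries were left out.

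**Figure D5:**
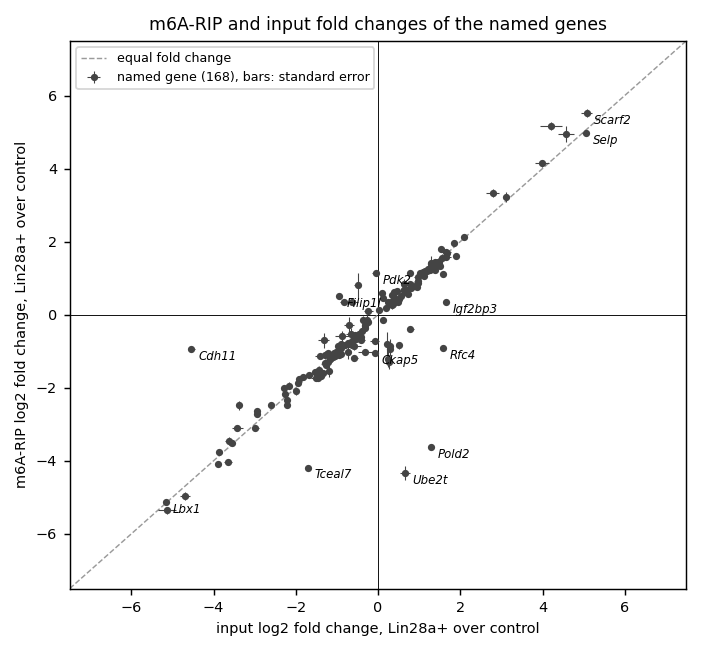
The log2 fold change of the named genes in the m6A-RIP (y axis) against that in the input (x axis), Lin28a+ over control, with standard errors as bars and a dashed line where both are equal. Of the 168 genes 141 lie within 0.5 of the line in log2 fold change, and 13 were called in opposite directions, of which Pold2, Ube2t, Rfc4 and Filip1l are labelled. Pold2 and Filip1l overlap a neighbouring gene, so how their reads were assigned is uncertain.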

How the data were processed

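The study sequenced 14 libraries of MuSCs, of which the 4 m6A-RIP libraries are described, with the 4 input libraries beside them. For the m6A-RIP, the authors deposited whole-number counts per row without scaling between libraries, and for the input estimated counts per gene, which were rounded here. Per the paper's methods, reads were aligned with HISAT2 2.0.4 and m6A peaks called with MACS2 (version given as 1.4.3). The methods name GRCh38, the labels GRCh38 and mm10, and the identifiers are those of mouse genes, so no positions were taken from the tables. The counting program, the peak threshold and the pooling of replicates are not given in the sources used here.

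Rows were tested as deposited and summed by gene identifier, with edgeR 4.0.16 (R 4.3.3) quasi-likelihood tests, TMM factors, filterByExpr, which removed no m6A row, and Benjamini-Hochberg adjustment over all features tested. An adjusted p under 0.05 was called. Standard errors are the fold change divided by the square root of F. Each test was tried on simulated counts in which 200 features had been changed, equally often up and down. A far larger share of features was called in the data, so the trial does not check TMM scaling under such change. Symbols came from RefSeq, with 99.96% of rows matched.

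The rule for named genes took, per gene, the 10 higher and 10 lower genes with the smallest p (log2 fold change of at least 1, mean of at least 10 CPM, no overlap between groups, no gene models without a proper symbol), the 5 genes with most counts, up to 3 higher and 3 lower genes per list without overlap, the RT-qPCR genes with Igf2bp2, Igf2bp3, Twist1 and Twist2 where tested, and per row the 3 genes with most rows all higher, all lower, and called both ways (at least 2 each). Mettl3, Fto, Alkbh5, Pax7, Cmss1, Mirlet7i, Mir98 and Xist, Elavl1, Ythdf1, Tmem30a, Vcam1, Ncam1, Fbln1, Ly6a, Thy1, Pdgfra, and the models Gm26760 and Gm10451, fall outside it and were chosen after their values were seen. Of the 280 genes that the rule took, 176 are named, and the others enter only the counts. A gene counted as bound when a Lin28a-RIP or Igf2bp3-RIP table held at least 1 of its rows. For those tables the authors deposited counts per peak, which were not used. The members, gene lists and tests were chosen with earlier results of these data known. Alternatives were DESeq2 1.42.0, other scalings, filters and fold thresholds, the highest row of each gene, and each library left out.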

Additional observations from a re-analysis of the deposited data

How the results depend on the processing

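No paired analysis was possible because both Lin28a+ m6A-RIP columns carry the same name and no replicate number. Libraries were left out singly, and the lone library of a group was then assumed to vary like the others. Rows and genes called, in total and by direction, stayed within 1.5 times the main counts under DESeq2, DESeq2 size factors, scaling without H19, no filter and at least 10 counts in every library. With each library left out, 5785 to 5856 genes (2800 to 2848 higher, 2959 to 3035 lower) and 10152 to 10549 rows (4841 to 5107 higher, 5311 to 5442 lower) passed. Against a fold change of 1.5, 1677 genes (552 higher, 1125 lower), 3286 rows (1127 higher, 2159 lower) and 18 genes with rows called both ways passed, since that test asks for a larger change. Scaling by total counts gave 2395 higher and 3766 lower genes and 3842 higher and 7638 lower rows, after a shift of the median of all rows by -0.15.

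Shares of genes with a Lin28a-RIP peak moved to 43.0% (lower) and 22.3% (not called) under total counts and to 16.7% (higher) and 28.2% (not called) against a fold of 1.5. Those with an Igf2bp3-RIP peak moved to 19.3% (higher), 60.2% (lower) and 28.7% (not called) under total counts and to 15.4% (higher) and 37.4% (not called) against a fold of 1.5. Lower genes kept the greatest share under each.

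Of the 176 genes taken by the rule and named, 174 kept direction and call in the m6A-RIP under DESeq2, and 170 under total counts. Taking the highest row of each gene turned the called genes Cdh11 (0.28) and Myo18a (0.45) to higher, the cause of which was not tested, and Palb2 (0.027), not called under either. Total counts turned Msh3 (-0.017) and Hypk (-0.0017), neither then called. With a library left out, uncalled genes changed sign, with m6A-RIP log2 fold changes of -0.21 to 0.31 for Msh3, -0.22 to 0.068 for Palb2 and -0.28 to 0.010 for Dcp2, and input log2 fold changes of -0.20 to 0.032 for Aspm, -8.7e-04 to 0.022 for Myod1 and -0.15 to 0.026 for Pdk2. In the input, 3039 genes passed under DESeq2 against 6434, the cause of which was not tested, and 25 of 168 named genes lost their call.

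Each group has 2 libraries, so p-values rest on a spread estimated across genes. Counts were not divided by input, and the numbers of RNA molecules and of methylated sites cannot be told apart.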

Other observations

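Xist, the long non-coding RNA that coats the inactive X chromosome of female cells, was chosen after its values had been seen. It had 458 and 468 CPM in the m6A-RIP of MuSCs-control against 229.7 and 221 CPM in Lin28a+ MuSCs, a log2 fold change of -1.04 (standard error 0.041, adjusted p 4.68e-10 in edgeR's quasi-likelihood test), lower in both libraries. Of 29 small nucleolar RNA genes 51.7% were higher and 31% lower, and of 370 long non-coding RNA genes 26.8% were higher and 33% lower, beside 32.5% and 33.8% over all genes. The difference between these classes was not tested.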
